A study of Mus musculus with 6 samples.

Results

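Two-cell mouse embryos that carried injected PIASy-WT mRNA were compared with embryos that carried the RING-finger mutant PIASy-Mut, over every gene that reached an FPKM of 1 in 2 or more of the 4 libraries. FPKM is the number of sequenced fragments scaled to gene length and to the total counted in the library. The rule kept 14510 of the 53023 genes in the deposited table. ICR zygotes received mRNA for HA-tagged PIASy-WT or HA-tagged PIASy-C335F at 100 ng/µL between 1.5 and 3 hours post insemination (hpi), those with fluorescence at 9 hpi were kept, and embryos were collected at 28 hpi. Each of the 2 libraries per group was made from a pool of 5 embryos, and non-injection embryos of the same age (also 2 libraries of 5 embryos) are given beside them as the background. Both compared groups were thus injected, whereas the background embryos were not. The labels do not say whether the 2 pools of a group came from separate injections, so p-values measure the spread between pools only.

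PIASy, the product of Pias4, is an E3 ligase that attaches the small protein SUMO to other proteins, and its RING-type finger recruits the SUMO-loaded E2 enzyme. A cysteine of such a finger holds a zinc ion, and its replacement disrupts the fold. At the two-cell stage the mouse embryo replaces the mRNA stored in the oocyte by transcripts of its own genome, a step called major zygotic genome activation, in which genes for ribosomes and other housekeeping functions are strongly transcribed.

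The substitution C335F lies in exon 9 of the 11 exons of a Pias4 transcript in the GENCODE annotation, whose product has 507 residues. The codon of this residue is at chr10:81155707-81155709 on the minus strand of GRCm38. The 93 bases of reference transcript around it, with that codon in capitals, are shown because this is the only designed difference between the proteins.

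Pias4: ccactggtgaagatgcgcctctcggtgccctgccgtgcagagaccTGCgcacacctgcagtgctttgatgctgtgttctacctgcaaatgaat

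The injected mRNA was detected in both groups. The Pias4 level was 862 and 611 FPKM in PIASy-Mut, 610 and 579 FPKM in PIASy-WT, and 2.98 and 3.59 FPKM in non-injection embryos. The injected libraries lay far above the non-injection libraries, and the 2 injected groups nearly touched. The difference in log2(FPKM + 1), PIASy-WT minus PIASy-Mut, was -0.29 ± 0.26 (SE, n = 2 and 2, limma, adjusted p = 0.5). This does not show equal amounts of mRNA, and the amount of protein was not measured here. FPKM does not tell injected from embryonic Pias4 transcripts.

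The depth recovered from the FPKM values was 1032206 and 871663 fragments in PIASy-Mut against 1325411 and 1149421 in PIASy-WT. PIASy-Mut 1 stood apart from the other libraries in its share of mitochondrial fragments. Genes of the mitochondrial genome took 1.28% of its fragments, against 6.99% in PIASy-Mut 2, 5.82% and 8.14% in PIASy-WT, and 6.40% and 6.47% in non-injection embryos. Over the 6542 tested genes with a mean of at least 20 fragments in the 4 libraries, the median distance between the 2 replicates on the log2(FPKM + 1) scale was 0.54 in PIASy-Mut, 0.27 in PIASy-WT and 0.25 in non-injection embryos. Replicates differed by more than 1 on that scale for 19.7% of these genes in PIASy-Mut and for 4.71% in PIASy-WT. Over all tested genes the Pearson correlation with the non-injection libraries was 0.910 and 0.906 for PIASy-Mut 1, and 0.901 and 0.898 for PIASy-Mut 2. With the PIASy-WT libraries it was 0.726 and 0.686 for PIASy-Mut 1, and 0.838 and 0.815 for PIASy-Mut 2. The distance between the PIASy-Mut libraries does not say which of them is unusual. Results are therefore given against each PIASy-Mut library where it matters. Of 18 markers of cumulus cells, which surround the oocyte, 4 passed the filter and none was called, and their summed level was 21.3 to 31 CPM (fragments per 1000000 counted) in all 6 libraries. Of 10 transcripts of late spermatids 2 passed and none was called, with sums of 111 to 162 CPM. Spike-in values are not in the table used here, so every level is a share of its library and a change in total RNA per embryo would not be seen. Fewer cells with a transcript and less of it per cell cannot be told apart.

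Far more genes were lower than higher in PIASy-WT than in PIASy-Mut. With limma, a Benjamini-Hochberg adjusted p up to 0.05 and a log2 difference of 2 or more in size, 714 genes were lower, 4.92% of the genes tested, and 106 were higher, 0.731% of them. At a difference of at least 1, 1200 genes were lower (8.27%) and 235 were higher (1.62%). Of these, 122 of the 714 lower genes passed the FPKM filter only through PIASy-Mut and 82 of the 106 higher genes only through PIASy-WT, the group where they are high, so the filter itself favoured a difference in them. The number of fragments behind the calls was very unequal. Of the lower genes 511 had a mean of at least 20 fragments, but of the higher genes 11 did. A further 76 of the 106 higher genes and 89 of the 714 lower genes had a mean of 5 fragments or fewer. On simulated counts the same test called unchanged genes in that range too often, so calls at 5 fragments or fewer, most of the higher ones, are not relied on, and each called gene named below has a mean of more than 10 fragments.

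**Figure D1:**
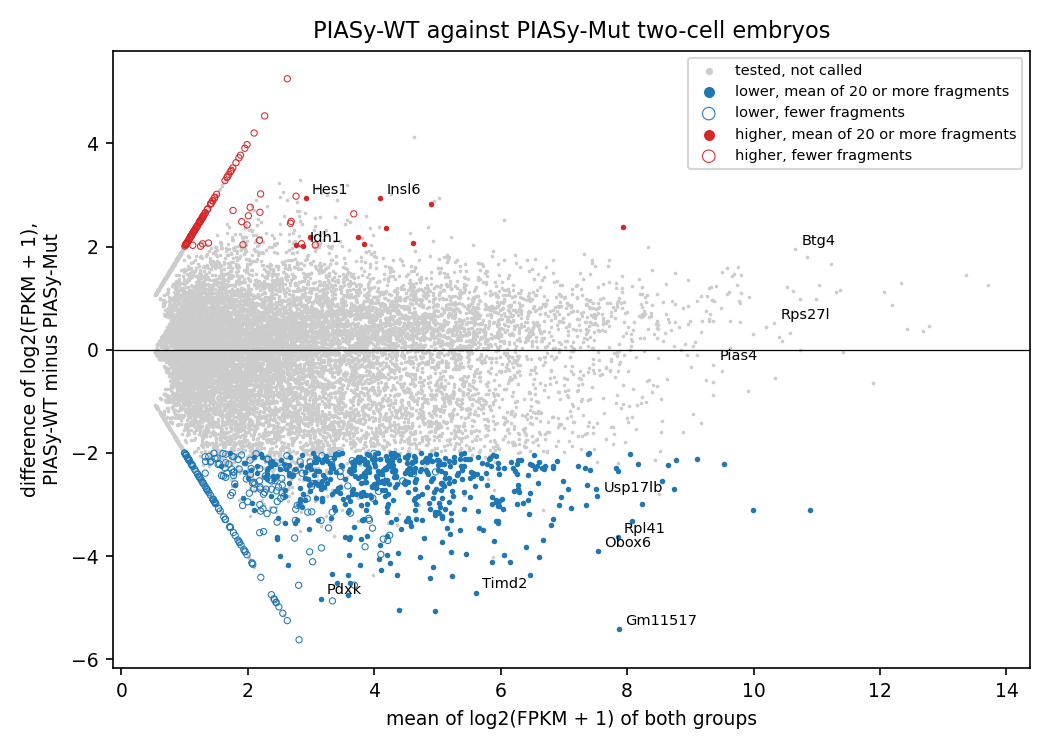
Each point is 1 of 14510 genes, with the mean of log2(FPKM + 1) over both groups on the x axis and PIASy-WT minus PIASy-Mut on the y axis. Filled points are calls with a mean of 20 or more fragments (511 lower, 11 higher) and open rings are calls with fewer, which line the edges at low levels.

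The count of calls depended on how the weakly detected genes were handled. With a mean of at least 10 fragments required in place of the FPKM filter, 667 genes were lower and 40 higher, and with the 4 injected libraries alone under that filter 666 and 40. With the FPKM filter and only those 4 libraries, limma called 0 genes, with 3927 genes at an unadjusted p under 0.05 and a smallest adjusted p of 0.0681, whereas voom on the recovered fragments of the same 4 libraries called 1006 lower and 124 higher. Under the FPKM filter the count was 0 in both directions when PIASy-Mut 1, either PIASy-WT library or either non-injection library was left out, and 1211 lower and 403 higher without PIASy-Mut 2. With at least 10 fragments, leaving out PIASy-Mut 1 gave 343 lower and 16 higher and leaving out PIASy-Mut 2 gave 1160 and 288. Without PIASy-WT 2 it was 409 lower and 17 higher. Of the 590 lower calls that could be tested under that filter, 550 were still called without PIASy-Mut 1 at a difference of at least 1, and 332 at a difference of at least 2.

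The lower genes were set against the spread between the 2 PIASy-Mut libraries. A gene was counted as beyond this spread where the gap between the nearest PIASy-WT and PIASy-Mut libraries was larger than the distance between the PIASy-Mut libraries. Among all tested genes 20.2% lay beyond it on the lower side and 12.7% on the higher side. The groups did not overlap on the lower side for 32.8% of tested genes and on the higher side for 27.6%. Of the 714 lower genes, 700 (98.0%) lay beyond the spread. The test itself uses that distance, so this share is a description. Their median gap was 1.89 and their median distance between PIASy-Mut libraries 0.82. The median FPKM of the lower genes was 47.9 and 26.0 in PIASy-Mut, 4.71 and 4.18 in PIASy-WT, and 29.5 and 34.2 in non-injection embryos. Together they took 15.2% and 8.29% of fragments in PIASy-Mut against 1.94% and 1.47% in PIASy-WT, against 10.5% and 10.7% in non-injection embryos. PIASy-Mut 2 was below PIASy-Mut 1 for 657 of them (92.0%), against 48.4% of all tested genes. The median difference was -2.95 against PIASy-Mut 1 and -2.16 against PIASy-Mut 2. All 714 were lower by at least 1 against each PIASy-Mut library, and 449 (62.9%) were lower by at least 2 against PIASy-Mut 2 alone. The call already required a mean difference of at least 2 and weighed the PIASy-Mut distance, so these shares are descriptions too.

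**Figure D2:**
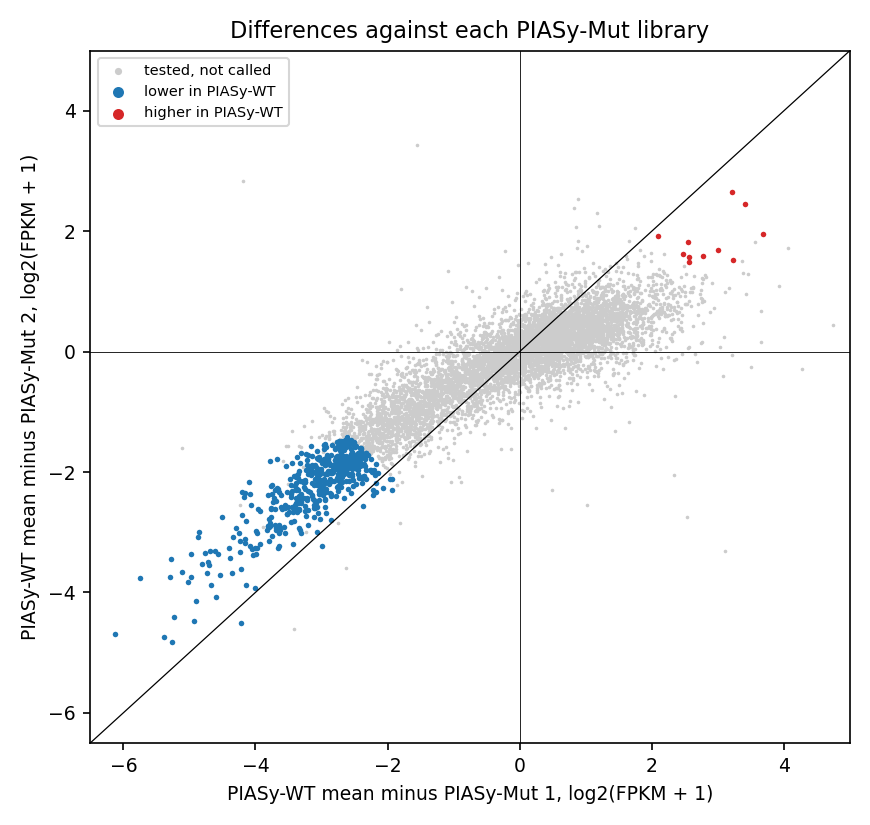
Each point is a gene with a mean of at least 20 fragments, with the difference in log2(FPKM + 1) between the PIASy-WT mean and PIASy-Mut 1 on the x axis and PIASy-Mut 2 on the y axis. The diagonal marks equal differences. Lower genes lie mostly above it, that is, nearer to 0 against PIASy-Mut 2.

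A few lower genes did not clear the spread. There were 14 of them, and Nup43, a nucleoporin gene, is one example, named after its values were seen. Its level was 186 and 81.6 FPKM in PIASy-Mut against 38.0 and 21.8 FPKM in PIASy-WT. Its gap of 1.08 was below the PIASy-Mut distance of 1.18. Among protein-coding called genes with a mean of at least 20 fragments, Tmed6, Commd5, Obox8, Pitpnb and Spic were among those with the largest distances between PIASy-Mut libraries. Tmed6, a cargo receptor of the early secretory pathway, was at 95.7 and 23.7 FPKM in PIASy-Mut against 5.20 and 6.99 in PIASy-WT, so its distance of 1.97 exceeded its gap of 1.63. Commd5 was at 58.5 and 15.2 against 1.42 and 3.28 FPKM, with a distance of 1.88 and a gap of 1.92, and without PIASy-Mut 1 it did not pass (adjusted p = 0.0561, limma, at least 10 fragments). Pitpnb, a phosphatidylinositol transfer protein, was at 133 and 37.4 against 5.14 and 8.24 FPKM. Spic, a transcription factor of the ETS family, was at 135 and 38.2 against 3.93 and 3.40 FPKM. Pitpnb and Spic still passed without PIASy-Mut 1 with at least 10 fragments (limma), with differences of -2.35 and -3.08 and adjusted p-values of 0.0148 and 0.00976.

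The largest decreases among protein-coding genes were in genes of varied function, each with a mean of at least 20 fragments and a gap above the PIASy-Mut distance. Pdxk, which makes the active form of vitamin B6, was at 62.1 and 34.4 FPKM in PIASy-Mut, 1.12 and 0.322 in PIASy-WT, and 35.9 and 48.7 in non-injection embryos. Both PIASy-WT libraries lay far below all others, at 8 and 2 fragments, and the PIASy-Mut mean was 67.0 times the PIASy-WT mean (difference -4.82 ± 0.42, SE, n = 2 and 2, limma, adjusted p = 0.0179). Timd2, a cell-surface receptor of the TIM family, was at 291 and 212 FPKM in PIASy-Mut against 5.00 and 14.3 in PIASy-WT. The groups were separated by a gap of 3.80 with a PIASy-Mut distance of 0.46 (difference -4.70 ± 0.46, adjusted p = 0.0179, limma). Alppl2, an alkaline phosphatase, fell from 207 and 90.0 FPKM to 5.35 and 5.40 (difference -4.43, limma, adjusted p = 0.0179).

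Cst7, a cysteine protease inhibitor, was at 141 and 59.3 FPKM in PIASy-Mut against 1.53 and 7.06 in PIASy-WT. Meikin, a kinetochore factor of meiosis I, was at 98.5 and 56.5 against 1.49 and 5.14 FPKM. Folr1, a folate receptor, was at 104 and 58.4 against 4.60 and 2.65 FPKM. In none of these did the groups overlap, and the PIASy-Mut libraries lay on either side of the non-injection values. Zmat5, a protein of the minor spliceosome, was at 52.8 and 36.8 against 0.605 and 2.09 FPKM, which is at least 22.9-fold lower in PIASy-WT since both libraries held at most 3 fragments on average. The remaining members of this group were the predicted genes Gm6871 (281 and 102 against 7.98 and 6.44 FPKM) and Gm12790 (86.6 and 29.0 against 3.97 and 0 FPKM), the homeobox gene Obox8, and Rpf2 and Rps27, which are described with the ribosome. Without PIASy-Mut 1 and with at least 10 fragments, the differences of the 12 genes ran from -4.48 for Timd2 to -3.45 for Obox8. The genes were chosen by calls and gaps that used PIASy-Mut 1, so the differences without it are not independent support.

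**Figure D3:**
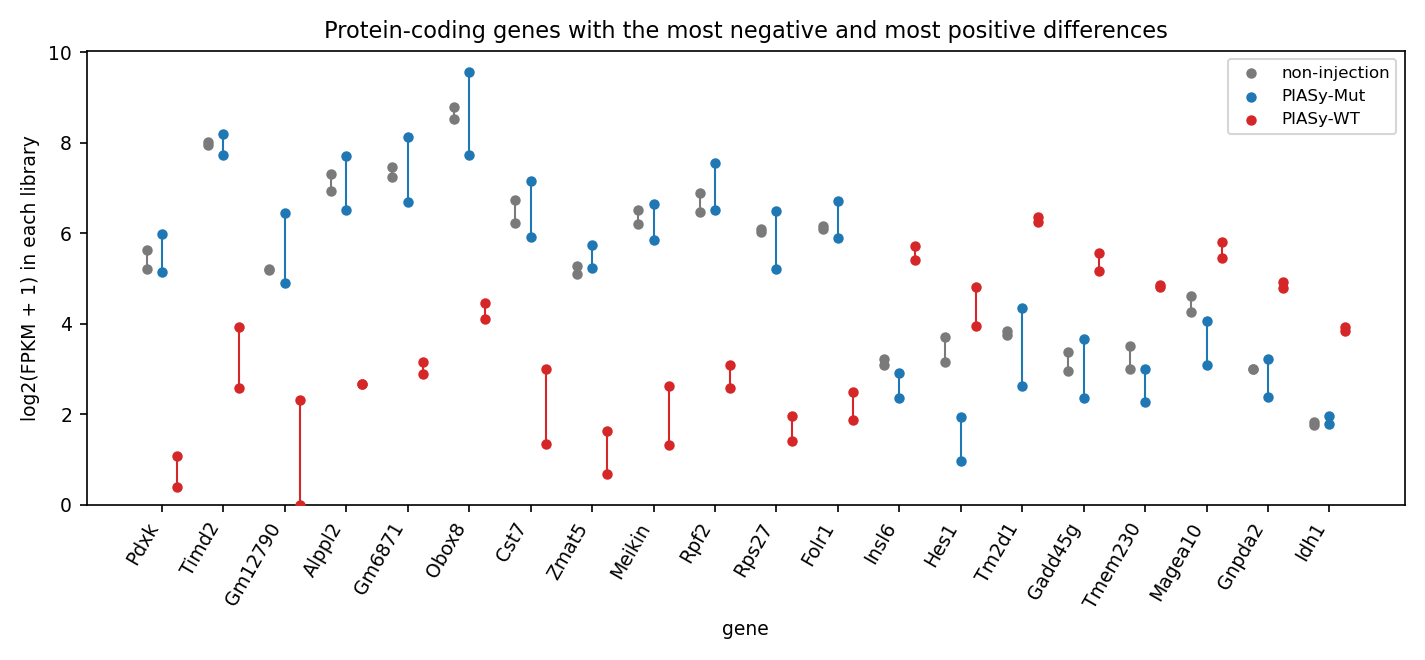
Each point is 1 library and each line joins the 2 libraries of a group, on the log2(FPKM + 1) scale, for 12 genes lower and 8 genes higher in PIASy-WT. In the first 12 genes both PIASy-WT points lie below the PIASy-Mut and non-injection points, and in the last 8 they lie above them.

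The most negative non-coding genes were 3 pseudogenes and a long intergenic RNA. Gm11517, a processed pseudogene at chr11:96795439-96795825, was at 2516 and 928 FPKM in PIASy-Mut, 44.8 and 27.0 in PIASy-WT and 1658 and 1572 in non-injection embryos. Its difference of -5.42 ± 0.51 (limma, adjusted p = 0.0179) was the most negative of those with at least 20 fragments. Obox3-ps6 was at 225 and 144 against 9.76 and 1.73 FPKM, and Obox3-ps5 at 140 and 103 against 1.50 and 4.34 FPKM. Gm28867 was at 123.4 and 30.2 against 2.79 and 0.402 FPKM. The groups did not overlap in any of the 4. Counts of pseudogenes and of gene families with near-identical copies depend on how reads that match several copies were assigned, so these levels are uncertain.

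Genes for making ribosomes were lower as a group. Of 84 measured ribosome biogenesis factors, 26 were lower by at least 2 and 41 by at least 1, against shares of 4.92% and 8.27% among all genes tested, none was higher, and the median difference was -1.77, against -0.02 over all genes tested. Against single libraries the median was -2.17 for PIASy-Mut 1 and -1.26 for PIASy-Mut 2. Their summed level was 18561 and 10452 CPM in PIASy-Mut, 4480 and 3941 in PIASy-WT, and 13279 and 13797 in non-injection embryos. Without PIASy-Mut 1 and with at least 10 fragments, 9 of 80 were lower by at least 2, against 343 of 8789 genes, and 32 of 80 by at least 1, against 897 of 8789.

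Rpf2, which brings the 5S RNA into the large subunit, was at 188 and 90.0 FPKM in PIASy-Mut against 7.45 and 4.97 in PIASy-WT (difference -4.21 ± 0.42, limma, adjusted p = 0.0179). Nhp2, a protein of the particles that guide pseudouridylation of RNA, was at 480 and 347 FPKM in PIASy-Mut, 81.0 and 52.4 in PIASy-WT and 407 and 434 in non-injection embryos. Brix1, a large-subunit assembly factor, was at 486 and 296 FPKM against 69.6 and 80.0. In all 3 the higher PIASy-WT library lay below the lower PIASy-Mut library by more than the PIASy-Mut distance. Nop10, a partner of Nhp2, was lower by 1.13 and passed narrowly (295 to 423 FPKM in PIASy-Mut, 157 to 165 in PIASy-WT, limma, adjusted p = 0.0489).

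Of 84 cytosolic ribosomal protein genes, 29 were lower by at least 2 and 46 by at least 1, against 4.92% and 8.27% of all genes tested, none was higher, and the median difference was -1.83. It was -2.17 against PIASy-Mut 1 and -1.49 against PIASy-Mut 2. The groups did not overlap on the lower side for 80 of the 84, against 32.8% of all genes tested. Without PIASy-Mut 1 and with at least 10 fragments, 13 of 79 were lower by at least 2 and 41 by at least 1, against 3.90% and 10.2% of 8789 genes. Rpl41, the smallest protein of the large subunit, was at 1056 and 628 FPKM in PIASy-Mut, 83.3 and 49.9 in PIASy-WT and 878 and 849 in non-injection embryos (difference -3.64 ± 0.37, limma, adjusted p = 0.0179). Rps27, of the small subunit, was at 89.2 and 36.3 FPKM against 2.89 and 1.67. Rplp0, of the ribosomal stalk, was at 753 and 513 against 171 and 104 FPKM. The paralogue of Rps27 named Rps27l did not follow, at 1004 and 1156 FPKM in PIASy-Mut against 1479 and 1591 in PIASy-WT (difference 0.51, limma, adjusted p = 0.226).

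The promoters of Rpl41, Brix1 and Rpf2 are shown because many ribosome genes share a short motif. Those of Alppl2 and Timd2, from the largest decreases, stand beside them. Each is the 250 bases before the RefSeq start of the gene (GRCm38.p6), read on the gene's strand, with searched motifs in capitals.

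Rpl41: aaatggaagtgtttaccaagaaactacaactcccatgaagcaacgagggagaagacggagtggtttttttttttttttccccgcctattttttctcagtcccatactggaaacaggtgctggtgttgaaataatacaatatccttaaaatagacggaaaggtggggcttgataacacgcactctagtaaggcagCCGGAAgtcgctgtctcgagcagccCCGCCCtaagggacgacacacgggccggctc
Brix1: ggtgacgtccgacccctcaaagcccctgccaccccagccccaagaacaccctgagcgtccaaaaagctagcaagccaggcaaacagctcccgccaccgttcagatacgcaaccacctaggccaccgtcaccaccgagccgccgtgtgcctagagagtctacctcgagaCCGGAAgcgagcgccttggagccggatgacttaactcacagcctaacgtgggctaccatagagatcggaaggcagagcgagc
Rpf2: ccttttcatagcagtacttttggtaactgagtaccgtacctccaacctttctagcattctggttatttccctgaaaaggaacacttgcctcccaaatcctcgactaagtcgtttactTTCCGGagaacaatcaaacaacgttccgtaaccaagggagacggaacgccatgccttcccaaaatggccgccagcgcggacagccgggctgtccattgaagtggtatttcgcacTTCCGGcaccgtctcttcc
Alppl2: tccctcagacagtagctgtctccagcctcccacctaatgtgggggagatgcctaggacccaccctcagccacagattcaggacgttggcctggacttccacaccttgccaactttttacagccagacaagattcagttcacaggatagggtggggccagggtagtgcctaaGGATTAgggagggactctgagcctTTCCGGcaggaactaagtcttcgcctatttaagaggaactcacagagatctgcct
Timd2: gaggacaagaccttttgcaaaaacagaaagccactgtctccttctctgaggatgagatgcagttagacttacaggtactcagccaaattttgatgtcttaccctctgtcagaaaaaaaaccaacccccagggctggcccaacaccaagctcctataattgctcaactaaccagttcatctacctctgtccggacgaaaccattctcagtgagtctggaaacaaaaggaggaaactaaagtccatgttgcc

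These windows lie at chr10:128549169-128549418 for Rpl41, chr15:10485938-10486187 for Brix1, chr10:40247040-40247289 for Rpf2, chr1:87089929-87090178 for Alppl2 and chr11:46707105-46707354 for Timd2, all on the minus strand. Over windows that also hold the 50 bases after the start, the ETS core CCGGAA, searched on both strands (reverse complement TTCCGG), occurred in 38.0% of the promoters of 421 matched lower genes, 27.3% of 9140 matched tested genes and 15.2% of all 27025 promoters. It occurred in 32 of 64 ribosomal protein promoters and 37 of 72 ribosome biogenesis promoters. Among genes with a mean of at least 20 fragments the shares were 41.1% of 358 lower and 31.3% of 4946 tested genes. The homeobox core GGATTA (reverse complement TAATCC) occurred in 10.2% of lower and 6.17% of tested promoters. The box CCAAT (reverse complement ATTGG) occurred in 41.8% and 41.1%, and the GC box GGGCGG (reverse complement CCGCCC) in 53.2% and 58.2%. The promoter of Timd2 holds none of the motifs searched. These are descriptions of letters and no binding was measured.

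In the other housekeeping lists the lower genes are to be read against all genes, of which 8.27% were lower by at least 1, and 13.96% of those with a mean of at least 20 fragments. Of 44 proteasome genes 8 were lower by at least 1 and 1 was higher, with a median of -0.81. Psmb5, a catalytic subunit, was at 37.7 and 25.5 FPKM in PIASy-Mut against 3.36 and 0.968 in PIASy-WT. The gene that rose was Psmg1, a chaperone of proteasome assembly and not a subunit, at 10.1 and 12.8 against 38.2 and 36.9 FPKM (difference 1.64, limma, adjusted p = 0.0269). Of 64 translation factors 12 were lower and none higher. Of the lower ones 6 were subunits of the initiation factor eIF3, such as Eif3g at 87.9 and 29.5 against 6.46 and 4.82 FPKM. This subgroup was picked out after the calls were seen, and the number of eIF3 genes tested is not given here. Among the most abundant members Eif1 stayed at 507 and 510 against 475 and 472 FPKM (adjusted p = 0.803, limma).

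At the same difference of at least 1, which 8.27% of all genes passed on the lower side, 8 of 41 splicing factors were lower and none higher (median -1.06). Of 71 mitochondrial ribosomal protein genes 10 were lower and none higher (median -0.44), among them Mrpl34 at 263 and 130 against 46.0 and 43.0 FPKM. Of 81 nuclear-encoded respiratory chain genes 14 were lower and none higher (median -0.64). Of 19 chaperones 4 were lower (median -0.59), including the cytosolic HSP90 gene Hsp90ab1 at 156 and 99.1 against 42.0 and 42.6 FPKM. Of 21 aminoacyl-tRNA synthetase genes 2 were lower (median -0.57). No gene of these last 2 lists was higher, and for 15 small nucleolar RNA hosts none was called (median -0.76, but -0.27 against PIASy-Mut 2).

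The counts of these lists moved with the filter and with PIASy-Mut 1. With at least 10 fragments, where 19.8% of all genes were lower by at least 1, the lower genes were 16 of 41 for the proteasome, 21 of 60 for translation factors, 16 of 40 for splicing, 17 of 64 for the mitochondrial ribosome, 20 of 66 for the respiratory chain, 6 of 18 for chaperones, 7 of 18 for tRNA synthetases and 3 of 13 for small nucleolar RNA hosts. Without PIASy-Mut 1 under the same filter, where 10.2% of all genes were lower, they were 8, 10, 9, 8, 8, 4, 2 and 0 in the same order.

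**Figure D4:**
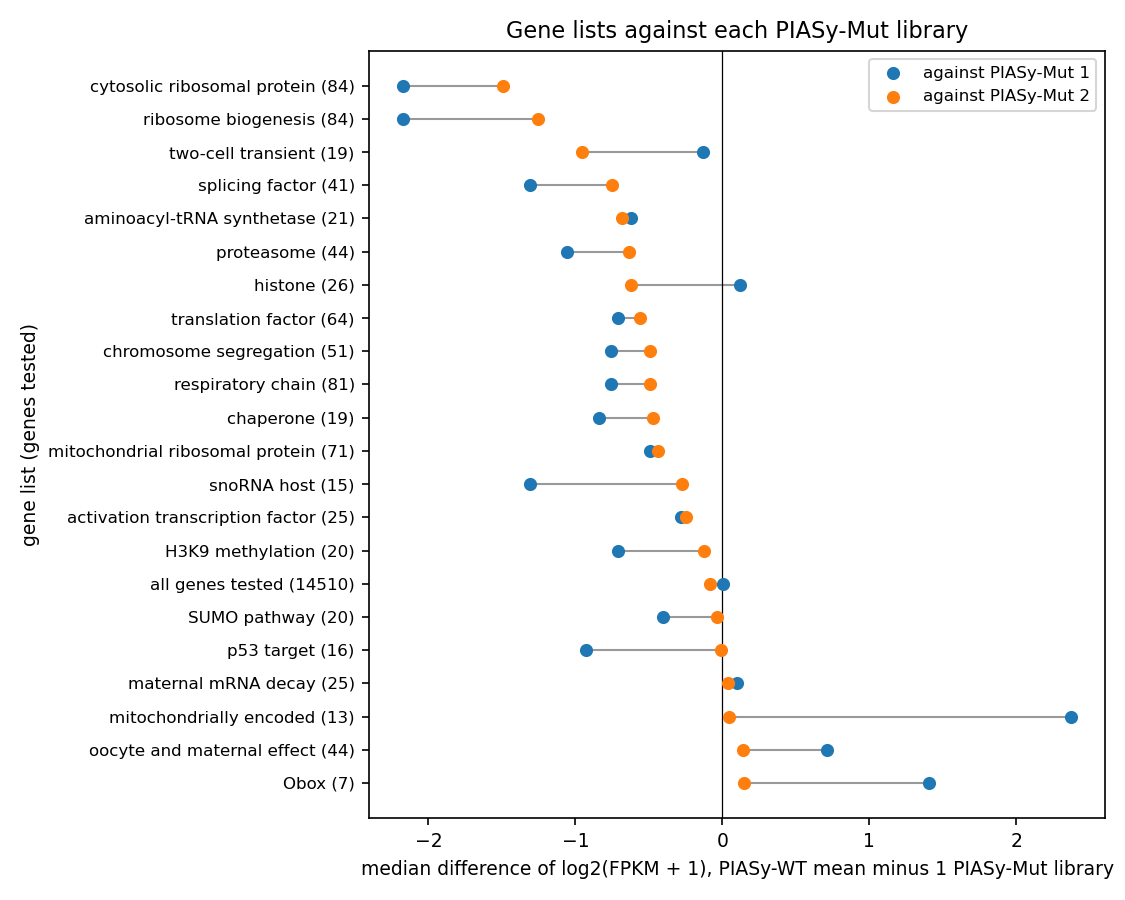
For each list the 2 points are the median difference in log2(FPKM + 1) between the PIASy-WT mean and each PIASy-Mut library, with the number of genes tested in parentheses. Ribosomal protein and ribosome biogenesis genes are lowest against both libraries, and mitochondrially encoded genes reach 2.37 against PIASy-Mut 1 but 0.05 against PIASy-Mut 2.

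The 13 genes for proteins encoded by the mitochondrial genome followed PIASy-Mut 1. Their median difference was 2.37 against that library and 0.05 against PIASy-Mut 2, and none was called. The cytochrome b gene mt-Cytb was at 3226 and 23348 FPKM in PIASy-Mut, 18795 and 22737 in PIASy-WT and 21140 and 21136 in non-injection embryos. Only PIASy-Mut 1 was apart. The part of this library in the other differences was not tested beyond the values given without it.

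Genes of genome activation differed among families. Of 19 genes seen transiently at the two-cell stage 5 were lower by at least 1 and none was higher, against 8.27% lower and 1.62% higher of all genes tested. Usp17lb, a deubiquitinase gene, was at 582 and 415 FPKM in PIASy-Mut, 66.7 and 69.7 in PIASy-WT and 387 and 420 in non-injection embryos (difference -2.83 ± 0.26, limma, adjusted p = 0.0179). Tcstv3 was at 706 and 523 against 277 and 193 FPKM (difference -1.39, adjusted p = 0.0427, limma), and Zfp352 was at 291 and 326 against 194 and 144 FPKM without passing (adjusted p = 0.0779, limma). The other 3 lower members were the BTB-domain genes Tdpoz1, Tdpoz2 and Tdpoz4. With at least 10 fragments 6 of 18 were lower by at least 1 and 1 was higher, against 19.8% and 4.35% of all genes. Usp17le, of the family of Usp17lb, went the other way without passing (difference 1.95, limma, adjusted p = 0.091). It was at 1.95 and 5.20 against 19.0 and 12.7 FPKM. In Zscan4d, at 61.4 and 187 against 126 and 75.4 FPKM, PIASy-WT lay between the PIASy-Mut libraries. The median of the list was -0.48, and -0.13 against PIASy-Mut 1 but -0.96 against PIASy-Mut 2.

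Within the Obox homeobox family 3 of 7 genes were lower by at least 2, against 4.92% of all genes tested, and none was higher. Obox8 was at 752 and 210 FPKM in PIASy-Mut, 16.2 and 20.9 in PIASy-WT and 441 and 369 in non-injection embryos (difference -4.36 ± 0.58, limma, adjusted p = 0.0202). Obox6 was at 1002 and 513 against 51.6 and 42.7 FPKM, and Obox3 at 178 and 115 against 10.6 and 6.82 FPKM. The other 4 had positive differences that did not pass, as in Obox5 at 488 and 754 against 1583 and 1063 FPKM (difference 1.09, limma, adjusted p = 0.121). None of the 4 had a gap above its PIASy-Mut distance. With voom on 4 libraries 2 of 7 were higher by at least 1, against 2.02% of all genes, Obox5 among them (adjusted p = 0.0286, voom). The median of the list was 0.81, with 1.41 against PIASy-Mut 1 and 0.15 against PIASy-Mut 2.

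Of 25 transcription factors of activation and early lineages 1 was called, against 8.27% lower among all genes at a difference of at least 1. With at least 10 fragments 5 of 19 were lower (19.8% of all genes), with voom on 4 libraries 5 of 25 (10.7% of all genes), and without PIASy-Mut 1 with at least 10 fragments 1 of 19 (10.2% of all genes). The gene called at first was Dppa4, a chromatin protein of pluripotent cells, at 269 and 109 FPKM in PIASy-Mut, 11.8 and 8.51 in PIASy-WT and 152 and 162 in non-injection embryos (difference -3.97 ± 0.44, limma, adjusted p = 0.0182). Both PIASy-WT libraries lay below all others. Among 26 clustered histone genes only 2 had enough fragments to pass a mean of 10 and neither was called. The 3 calls in the list had few fragments and are not relied on, and voom on 4 libraries called none. The list had a median of -0.15 that was 0.12 against PIASy-Mut 1 and -0.62 against PIASy-Mut 2. Klf17, an abundant factor of the activation list, was at 147 and 128 against 99.7 and 75.4 FPKM and did not pass (adjusted p = 0.133, limma).

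Of 51 genes of chromosome segregation 8 were lower by at least 1 and none higher (median -0.66), against 8.27% of all genes tested and 13.96% of those with at least 20 fragments. With at least 10 fragments 16 of 49 were lower (19.8% of all genes), 7 of 49 without PIASy-Mut 1 (10.2% of all genes) and 20 of 49 without PIASy-Mut 2 (27.0% of all genes). Cdk1, the kinase that drives entry into mitosis, was at 238 and 166 FPKM in PIASy-Mut, 42.1 and 31.2 in PIASy-WT and 182 and 181 in non-injection embryos (difference -2.42 ± 0.28, limma, adjusted p = 0.0185). Cenpa, the centromeric histone H3, was at 102 and 60.5 against 15.6 and 15.9 FPKM. Top2a, a topoisomerase that separates sister DNA, was at 35.5 and 20.7 against 7.53 and 4.25 FPKM. The others were Aurkc, Cenpe, Plk1, Sgo2a and Smc3. Pttg1, the securin gene, was more abundant at 813 and 969 against 516 and 446 FPKM but did not pass (adjusted p = 0.0722, limma).

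Of 44 oocyte and maternal-effect genes none was higher and 1 was lower by at least 1, against 1.62% and 8.27% of all genes tested. With at least 10 fragments 3 of 40 were higher, against 382 of 8789 genes, and with voom on 4 libraries 6 of 44 were, against 293 of 14510. With the 4 injected libraries alone and at least 10 fragments 1 of 40 was higher, against 188 of 8789. The lower gene was Zp3, a protein of the egg coat, at 80.6 and 74.6 FPKM in PIASy-Mut against 25.1 and 22.4 in PIASy-WT. The median of the list was 0.42, with 0.71 against PIASy-Mut 1 but 0.14 against PIASy-Mut 2. Of 25 genes of maternal mRNA decay none was called, and with at least 10 fragments 1 was lower and 2 were higher, against 19.8% and 4.35% of all genes. These differences moved with the PIASy-Mut library. Against PIASy-Mut 1 alone 7 were higher by at least 1 and 4 lower, against 3062 and 3984 of 14510 genes. Against PIASy-Mut 2 alone 1 was higher and 1 lower, against 10.3% and 19.4% of all genes. Btg4, the adaptor that brings the deadenylase to maternal mRNA, was at 508 and 1332 FPKM in PIASy-Mut, 3354 and 3020 in PIASy-WT and 1247 and 1168 in non-injection embryos. Both PIASy-WT libraries were the highest, but the gap of 1.18 was below the PIASy-Mut distance of 1.39. The difference of 1.95 ± 0.47 missed the threshold (limma, adjusted p = 0.0523). It passed in 10 of 27 alternatives, and with at least 10 fragments the adjusted p was 0.019 with all libraries and 0.0189 without PIASy-Mut 1 (range over alternatives 0.00138 to 0.273). Tcl1, abundant in oocytes, was at 2327 and 3587 against 6666 and 5970 FPKM (adjusted p = 0.0861, limma).

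Of 20 measured genes of the SUMO pathway, Pias4 included, 2 were lower by at least 1, a share near the 8.27% of all genes tested, and none was higher, with a median of -0.22 (-0.41 against PIASy-Mut 1, -0.04 against PIASy-Mut 2 and 0.09 with an FPKM filter of 5). Ranbp2, a nucleoporin with SUMO ligase activity, was at 21.6 and 12.5 FPKM in PIASy-Mut, 3.99 and 3.63 in PIASy-WT and 20.6 and 17.9 in non-injection embryos (difference -1.86 ± 0.35, limma, adjusted p = 0.0318). Uspl1, a SUMO isopeptidase, was at 17.3 and 10.6 against 3.02 and 2.63 FPKM (difference -1.93, adjusted p = 0.0295, limma). Both passed without PIASy-Mut 1 as well, with at least 10 fragments (adjusted p = 0.0341 and 0.0305, limma). With that filter and all libraries 4 of 20 were lower (19.8% of all genes), the others being Sae1, a subunit of the SUMO-activating enzyme (-1.59, limma, adjusted p = 0.0246), and the protease Senp5 (-1.48, limma, adjusted p = 0.0327). Neither passed without PIASy-Mut 1 under that filter (adjusted p = 0.0948 and 0.127, limma), and without PIASy-Mut 2 9 of 20 genes were lower and 4 higher, against 27.0% and 15.2% of all genes.

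The SUMO proteases Senp2 and Senp8 did not pass. Senp2 was at 13.997 and 4.84 FPKM in PIASy-Mut against 1.84 and 2.90 in PIASy-WT (adjusted p = 0.108, limma), so the PIASy-Mut libraries spanned most of the difference. Senp8 was at 9.04 and 25.5 against 28.4 and 44.5 FPKM (adjusted p = 0.176, limma). The ligase Pias3 was outside the filter, with 11 and 1 fragments in PIASy-Mut against 4 and 1 in PIASy-WT, which is too few to compare.

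Of 20 measured genes of H3K9 methylation, the mark of silent chromatin, 2 were lower by at least 1, again near the share of all genes, and none was higher (median -0.53, but -0.13 against PIASy-Mut 2 and 0.03 without PIASy-Mut 1 with at least 10 fragments). Kdm4c, a demethylase that removes this mark, was at 28.9 and 16.9 FPKM in PIASy-Mut, 1.81 and 3.74 in PIASy-WT and 19.1 and 19.4 in non-injection embryos (difference -2.67 ± 0.40, limma, adjusted p = 0.0229). The groups were well apart, and the difference was -2.30 without PIASy-Mut 1 with at least 10 fragments (limma, adjusted p = 0.0227). Trim28, a corepressor that recruits a methyltransferase, was at 15.8 and 10.2 against 3.81 and 3.56 FPKM (difference -1.55, adjusted p = 0.0428, limma) and missed without PIASy-Mut 1 (adjusted p = 0.0558). With at least 10 fragments 4 of 18 were lower and 1 was higher, against 19.8% and 4.35% of all genes. They included the demethylase gene Kdm3a (-1.09, limma, adjusted p = 0.0454), and the higher gene was Cbx1, a reader of the mark (1.16, limma, adjusted p = 0.0489). Without PIASy-Mut 1 under that filter 1 of 18 was lower, against 10.2% of all genes. The methyltransferase gene Suv39h1 was at 12.3 and 7.62 against 3.29 and 2.97 FPKM, and its paralogue Suv39h2 at 19.3 and 39.8 against 49.1 and 55.6 FPKM. Neither passed (adjusted p = 0.0598 and 0.164, limma). Suv39h1 passed in 6 of 27 alternatives (adjusted p from 0.00825 to 0.262), as with at least 10 fragments (difference -1.38, limma, adjusted p = 0.0275), and Suv39h2 in 2 of 27 (0.00706 to 0.461).

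**Figure D5:**
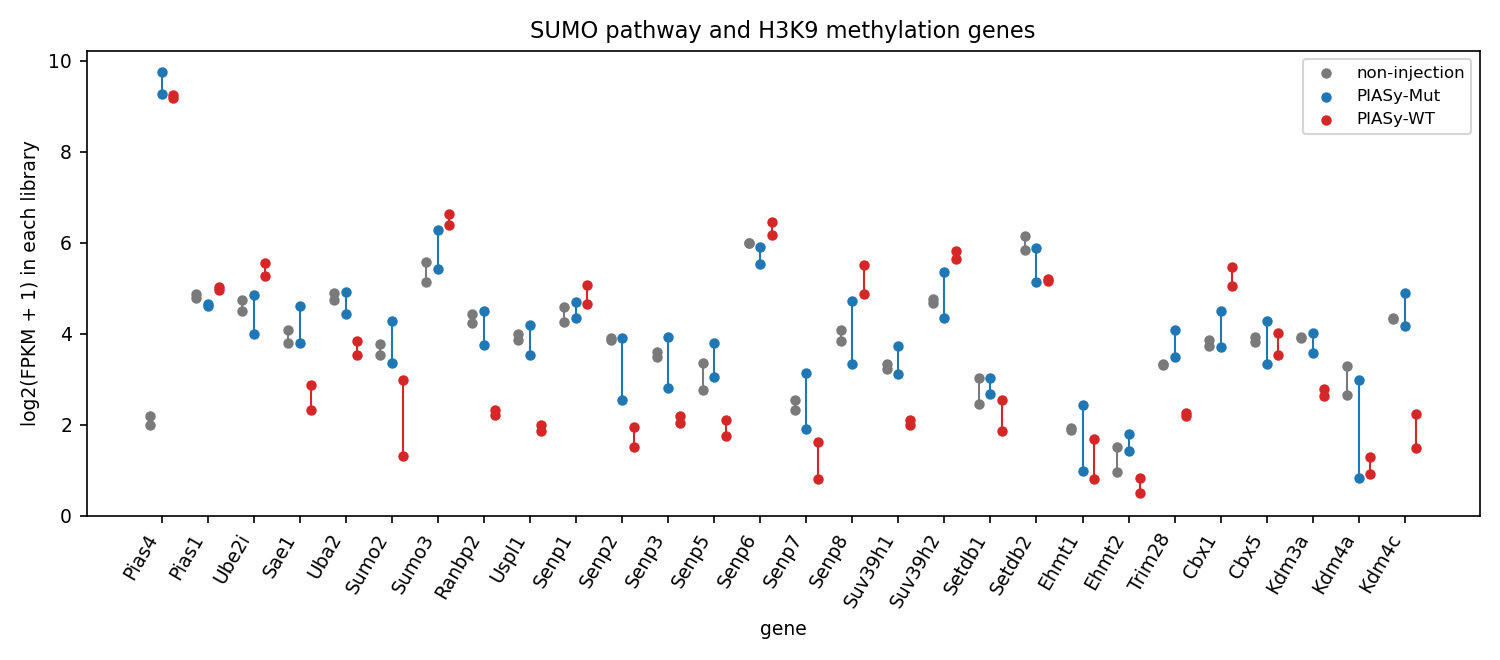
Points are single libraries on the log2(FPKM + 1) scale and lines join the 2 libraries of a group, for genes of the SUMO pathway and of H3K9 methylation. Pias4 is high in both injected groups, and Ranbp2, Uspl1, Trim28 and Kdm4c are the called genes, with PIASy-WT below PIASy-Mut.

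The genes higher in PIASy-WT with enough fragments to compare were few. Insl6, an insulin-like peptide gene, was at 4.11 and 6.48 FPKM in PIASy-Mut, 41.6 and 51.6 in PIASy-WT and 8.28 and 7.49 in non-injection embryos, on 3 and 4 against 39 and 42 fragments (difference 2.94 ± 0.32, limma, adjusted p = 0.0179). Hes1, a transcriptional repressor induced by Notch, was at 0.951 and 2.82 against 27.0 and 14.5 FPKM, with non-injection embryos between them at 7.92 and 12.2. Gadd45g, a stress-response gene, was at 4.13 and 11.7 against 46.3 and 34.9 FPKM (difference 2.35, adjusted p = 0.0386, limma). It was the 1 gene called in a list of 16 genes taken as p53 targets, against 0.731% higher by at least 2 among all genes tested. The median of that list was -0.57 (-0.01 against PIASy-Mut 2). With at least 10 fragments 2 of its 14 genes were lower by at least 1 and 1 was higher, against 19.8% and 4.35% of all genes.

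Idh1, the cytosolic isocitrate dehydrogenase, was at 2.45 and 2.90 FPKM in PIASy-Mut, 13.3 and 14.1 in PIASy-WT and 2.38 and 2.55 in non-injection embryos, and it had the tightest PIASy-Mut libraries of this group (distance 0.18, difference 2.01, limma, adjusted p = 0.0253). Gnpda2, an enzyme of amino sugar metabolism, was at 4.24 and 8.36 against 26.8 and 29.2 FPKM. Tmem230 was at 3.86 and 7.02 against 27.0 and 28.0 FPKM, Magea10, a MAGE family gene, at 7.45 and 15.8 against 43.1 and 55.4, and Tm2d1 at 5.17 and 19.4 against 75.2 and 81.3. PIASy-Mut 1 was the lower PIASy-Mut library in all 8 genes. Without it, with at least 10 fragments, the differences ran from 1.57 for Magea10 to 2.66 for Insl6. These genes were chosen by calls and gaps that used PIASy-Mut 1, so the differences without it are not independent support. Outside the named-gene rule and chosen after its values were seen, Med30, a Mediator subunit, was the most abundant higher gene at 58.0 and 192 against 561 and 548 FPKM, and its gap did not exceed the PIASy-Mut distance.

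The lower genes were somewhat shorter and more often pseudogenes than the genes tested. Their median length was 2164.5 bases against 2789, their median GC content 49.3% against 47.9%, and 107 of the 714 were pseudogenes against 11.2% of all tested. With a mean of at least 20 fragments the medians were 2657 against 4198.5 bases, and 7.44% against 2.77% were pseudogenes. By chromosome the share of lower genes was 7.86% on chromosome 7 (83 of 1056), which carries the Obox family, and 6.79% on chromosome 11 (72 of 1060), against 2.69% on chromosome 1 (25 of 931). These shares are descriptions with no test.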

How the data were processed

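RNA-seq libraries were prepared by the authors with a SMART-Seq v4 kit and Nextera XT from pools of 5 embryos. Per the labels and the study's methods, reads were trimmed with Trim Galore, aligned to mm10 with STAR and counted per gene with featureCounts. The annotation release and strand setting are not given in the sources used here, so overlapping and antisense genes are uncertain. The values of the single table, which the authors deposited for 6 libraries and 53023 genes, are FPKM.

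FPKM multiplied by gene length gave whole fragments within 0.01 for all values, and depth (871663 to 1363928 fragments) was taken from this. PCR copies are not independent molecules, so fragment numbers and the limit of 3 fragments cover counting error only. A fold against a group at or below a mean of 3 fragments per library was computed against that limit.

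The 14510 genes that reached an FPKM of 1 in 2 or more of the 4 injected libraries were fitted on log2(FPKM + 1) with limma 3.58.1 in R 4.3.3 (lmFit, eBayes with trend, all 6 libraries, no block, 3 residual and 3.18 prior degrees of freedom). The pseudocount of 1 understates changes of low genes. Adjustment of p-values followed Benjamini and Hochberg, and voom was run on recovered fragments as an alternative. The exact permutation test of a single gene with 2 against 2 libraries cannot pass 0.05 and was not used. The script was tested on simulated data. It made calls on unchanged genes with a mean of 5 fragments or fewer more often than its threshold allows. A filter on fragments was also run. Its combinations with the 4 injected libraries or with a left-out library, and the scaling without mitochondrial genes, were chosen after seeing the data.

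Named genes were the 12 most negative and 8 most positive called protein-coding genes (mean of at least 20 fragments, gap above the PIASy-Mut distance), the 6 called protein-coding genes with the largest PIASy-Mut distance (mean of at least 20 fragments), the 3 most abundant of each list, all SUMO and H3K9 methylation genes, and the 4 most negative non-coding genes. Some of these are not reported here. Members and gene lists were chosen with earlier results of these data known, as were further examples taken from the lists. Promoter sequences are from RefSeq. Columns of all 6 libraries were used, and the correlation of replicate deviations across genes was 0.0082 between non-injection and PIASy-Mut, 0.103 between non-injection and PIASy-WT and 0.0732 between PIASy-Mut and PIASy-WT, so replicate numbers were not treated as pairs.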

Additional observations from a re-analysis of the deposited data

How the results depend on the processing

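The count of 714 lower and 106 higher genes at a log2 difference of 2 became 308 and 6 with a pseudocount of 5, 224 and 11 without a filter, 0 and 0 with 4 libraries in the fit, and 1143 and 188 with voom on 6 libraries. The higher count was also 56 at an FPKM of at least 5, and 40 with a mean of at least 10 fragments, with or without the non-injection libraries in the fit. Left-out libraries gave 0 to 1211 lower and 0 to 403 higher genes under the FPKM filter, and 343 to 1160 lower and 16 to 288 higher with at least 10 fragments (409 and 17 without PIASy-WT 2, 33 higher without PIASy-WT 1). At a difference of 1 the 1200 lower genes became 243 without a filter, 789 with quantile normalization, 0 with 4 libraries in the fit and 1914 with voom on 6 libraries, and 0 to 1867 with a library left out (431 to 2376 with at least 10 fragments). The 235 higher genes became 120 with a pseudocount of 5, 11 without a filter, 382 with at least 10 fragments, 0 with 4 libraries, 508 with voom on 6 libraries and 0 to 980 with a library left out (25 to 1337 with at least 10 fragments, 51 without PIASy-WT 1 and 100 without PIASy-Mut 1). Where the FPKM filter was kept, fits with fewer libraries had fewer degrees of freedom, and the cause of the lost calls was not tested further. The replicate block gave 685 lower and 98 higher genes at a difference of 2, and 1012 and 139 at 1. Quantile normalization moved the median of all genes to 0.13 and gave 491 lower genes, and median-of-ratios scaling gave 579 lower and 106 higher. The counts beyond the PIASy-Mut spread stayed within 1.5 times of their value under the 4 alternatives run, and Pias4 stayed uncalled with the same sign in 27 of 27. Some genes changed sign, and not only those with differences near 0. With all libraries mt-Cytb was at 1.25, Kdm4a at -0.80, Gadd45b at -0.76 and Ehmt1 at -0.47. With quantile normalization the genes that changed sign were Cox8a (-0.0662), Hist1h2bk (0.243), Omt2b (-0.123), Omt2a (-0.101), Setdb2 (0.0418), Desi1 (0.168), Cbx5 (0.295) and Kdm1a (0.159). With median-of-ratios scaling they were Eif1 (0.0129), Hist1h2bk (0.101), Cbx5 (0.0635) and Kdm1a (0.0587). Hist1h2bk was at 0.0318 and Kdm1a at 0.00872 with mitochondrial genes left out, and Hist1h2bk at 0.00813 with a pseudocount of 5 and 0.0327 and 0.0349 with voom on 6 and 4 libraries. Over left-out libraries, Atrx ran from -0.0473 to 0.167, Cbx5 from -0.513 to 0.426, Ehmt1 from -1.19 to 0.257, Gadd45b from -1.53 to 0.0217, Hist1h2bk from -0.693 to 0.685, Kdm1a from -0.600 to 0.543, Kdm4a from -1.87 to 0.263, Mrpl18 from -0.13 to 0.167, Odf2 from -0.166 to 0.317, Setdb2 from -0.699 to 0.0515, Snrpg from -0.102 to 0.312, Tnfaip6 from -0.0931 to 0.639, Trp53inp1 from -0.0404 to 0.416 and mt-Cytb from -0.176 to 2.68. Kdm1a was at 0.149 and Mrpl18 at -0.0801 without PIASy-WT 2, Cbx5 at 0.199 without PIASy-WT 1 and Snrpg at -0.0248 without PIASy-Mut 1. None of these genes was called in the test with all libraries. With 2 libraries per group and no more than 1363928 fragments in a library, genes with few fragments could not be compared.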
